A study of Mus musculus with 12 samples.

Results

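The subcortical maternal complex is a protein assembly of the mouse egg, and its 6 genes Nlrp5, Ooep, Tle6, Khdc3, Padi6 and Zbed3 were followed through 12 RNA-seq libraries of germinal vesicle (GV) oocytes. The genes were chosen by symbol and matched to the gene identifiers of GENCODE mouse release 21, and 6 of 6 were found among the 55573 genes counted in every library. GV oocytes are fully grown oocytes whose nuclear envelope is intact. All came from a healthy B6D2F1 female, 12 weeks old, and were released from the ovary in M2 medium with milrinone, which keeps the nuclear envelope intact, so no group stands for a second animal. Whole single oocytes were amplified for 10, 14 or 18 cycles, with 2 libraries each. Fractions of 1/2, 1/4 and 1/8 of an oocyte, again with 2 libraries each, were dilutions of lysates of 2 other oocytes and, by the study's methods, had 18 cycles, so their replicates may be closer to technical than the whole oocytes are. The same amount of ERCC mix, a set of synthetic spike-in RNAs, was added to each sample after lysis in RLT plus, poly(A) RNA was taken with oligo-dT beads, and libraries were made with a Nextera kit.

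The complex lies beneath the plasma membrane of the growing oocyte and passes to the cells of the early embryo. Its messenger RNAs are made during oocyte growth and stored, and females that lack Nlrp5, Ooep, Tle6 or Padi6 produce embryos that stop in early cleavage. NLRP5 (also called MATER), OOEP (FLOPED) and TLE6 form the core of the complex, KHDC3 (FILIA), PADI6 and ZBED3 associate with it, and PADI6 is also needed for the fibrous lattices of the egg cytoplasm.

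Counts on genes were 11597144 and 9189672 in replicates 1 and 2 at 10 cycles, 12349577 and 13806199 at 14 cycles, but 3017069 and 1706478 at 18 cycles. The fraction libraries of 1/2 had 4024670 and 3598549, those of 1/4 had 4027907 and 5049518, and replicates 1 and 2 of 1/8 stood apart with 11404262 and 1702062. The lowest count of any member in any library was 468, for Nlrp5 in replicate 2 at 18 cycles, so all 6 members passed the filter of 5 counts in 2 libraries in every fit. The 18-cycle whole oocytes were the shallowest whole-oocyte libraries, and depth, cycle number and oocyte cannot be told apart between them and the others. Genes with a count numbered 23022 and 21146 at 10 cycles, 22853 and 23008 at 14 cycles, 17017 and 14918 at 18 cycles, 16794 and 16930 in 1/2, 17310 and 18092 in 1/4, with 18706 and 15682 in 1/8. Mitochondrially encoded genes held 0.329% and 0.197% of gene counts at 10 cycles, 0.284% and 0.301% at 14 cycles, 0.0407% and 0.0665% at 18 cycles, 0.0358% and 0.0667% in 1/2, 0.0869% and 0.104% in 1/4, with 0.131% and 0.195% in 1/8. Ambiguous reads were 2.64% and 2.72% at 10 cycles, 2.98% and 2.75% at 14 cycles, 4.10% and 3.89% at 18 cycles, 4.53% and 4.35% in 1/2, 4.41% and 3.98% in 1/4, with 3.19% and 2.98% in 1/8. The part of these measures in the differences below was not tested. Levels are given as gene counts scaled to the library's sum over genes (CPM), always for replicate 1 and then replicate 2.

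The labelled cell type was checked with oocyte markers, and 10 of 10 (Zp1, Zp2, Zp3, Gdf9, Bmp15, Mos, Kit, Oosp1, Dppa3 and Figla) had counts in all 12 libraries. Their summed level was 22411 and 20100.5 CPM at 10 cycles, 22426 and 23521 at 14 cycles, 6334 and 5524 at 18 cycles, 7503 and 7597 in 1/2, 11532 and 11847 in 1/4, with 18032 and 16535 in 1/8, with Gdf9 the most abundant by CPM throughout. Of 15 granulosa and cumulus cell markers, between 8 and 15 had counts in a library. Their summed level was 265 and 88.3 CPM at 10 cycles, 115 and 196 at 14 cycles, 81.5 and 31.1 at 18 cycles, 37.0 and 32.8 in 1/2, 60.3 and 63.0 in 1/4, with 82.5 and 83.4 in 1/8. The most abundant of them was Cyp11a1 in replicate 1 at 10 cycles, Cyp19a1 in 1/8 and Nr5a2 elsewhere. Fshr was at 0 in 9 libraries, Foxl2 in 7 and Ptx3 in 11. Others differed between replicates of whole oocytes. Cyp11a1 had 66.6 and 1.41 CPM at 10 cycles, with 4.94 and 19.5 at 14 cycles. In the same order Inha had 34.1, 0.326, 3.64 and 31.9, Gja1 32.5, 0, 2.35 and 18.2, and Star 24.6, 0.653, 1.78 and 7.17. Nr5a2, at 46.2, 37.4, 44.2 and 46.6, differed less, as did Cyp19a1 at 27.5, 32.6, 38.1 and 46.1. The 4 blood cell markers summed to at most 4.16 CPM, with Cd68 the most abundant and Hba-a1 at 0 in every library, and the 3 stromal markers summed to at most 7.21 CPM, with Col1a1 at 0 in 10 libraries. The part of other cells in the results was not tested.

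Among the core genes, Nlrp5 (ENSMUSG00000015721, GRCm38 chr7:23385889-23441922, plus strand, 16 exons in its longest coding transcript) encodes a leucine-rich repeat protein of the NLR family. Its level was 1367 and 999 CPM at 10 cycles, 1311 and 1217 at 14 cycles, but 489 and 274 at 18 cycles. In the fractions it was 230.1 and 432 CPM in 1/2, 748 and 616 in 1/4, with 646 and 788 in 1/8. The libraries at 10 and 14 cycles were therefore all above those at 18 cycles, 1/2 overlapped with the whole oocytes at 18 cycles, and 1/4 and 1/8 lay between them and the whole oocytes at 10 cycles without overlapping either.

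Ooep (ENSMUSG00000032346, chr9:78376109-78378725, minus strand, 3 exons) encodes a small KH-domain protein. It had 2453 and 2637 CPM at 10 cycles, 2346 and 2758 at 14 cycles, but 798 and 683 at 18 cycles. The fractions had 2293 and 1406 CPM in 1/2, 1522 and 2517 in 1/4, with 3067 and 4243 in 1/8. Ooep was thus lowest in the 2 whole oocytes at 18 cycles, and all 6 fraction libraries were above them, with 1/8 above every other library.

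Tle6 (ENSMUSG00000034758, chr10:81590904-81601073, minus strand, 14 exons) encodes a relative of the Groucho corepressors. It had 2436 and 1695 CPM at 10 cycles, 2330.4 and 2769.6 at 14 cycles, but 972 and 804 at 18 cycles. The fractions had 1567 and 1294 CPM in 1/2, 2472 and 2657 in 1/4, with 2605 and 1472 in 1/8. The whole oocytes at 18 cycles were again the lowest, and 1/8 overlapped with the libraries at 10 and at 14 cycles. Those of 1/4 overlapped with 14 cycles and lay above both at 10 cycles.

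Of the associated genes, Padi6 (ENSMUSG00000040935, chr4:140727355-140742643, minus strand, 16 exons) encodes the oocyte member of the peptidylarginine deiminase family. It had 6869.5 and 5021 CPM at 10 cycles, 5873 and 5709.5 at 14 cycles, but 1445 and 1016 at 18 cycles. The fractions had 957 and 1323 CPM in 1/2, 2338 and 2699.9 in 1/4, with 3879 and 2814 in 1/8. Whole oocytes at 18 cycles and 1/2 overlapped at the low end, and 1/4 and 1/8 lay above them and below all 4 libraries at 10 and 14 cycles.

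Khdc3 (ENSMUSG00000092622, chr9:73101836-73104438, plus strand, 3 exons) encodes another KH-domain protein. It had 2556 and 2741 CPM at 10 cycles, 2947 and 3413 at 14 cycles, but 15169.7 and 8377 at 18 cycles. The fractions had 16441 and 12932 CPM in 1/2, 20844 and 13851 in 1/4, with 4266 and 2019 in 1/8. In contrast to the core genes, all 6 libraries of whole oocytes at 18 cycles, 1/2 and 1/4 were above every other library, and 1/8 overlapped with 10 and 14 cycles. Khdc3 shares exons with Gm20509, a gene on the same strand. In GENCODE release 21 Gm20509 has 0 exon bases that no other gene covers, yet it had counts, so how reads on shared bases were assigned was not settled and the level of Khdc3 is uncertain. Counts on Gm20509 were between 54.9% and 57.4% of those on Khdc3 in 11 libraries and 76.0% in replicate 2 of 1/8.

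Zbed3 (ENSMUSG00000041995, chr13:95323612-95337841, plus strand, 2 exons) encodes a zinc finger protein. It had 6519.6 and 4076 CPM at 10 cycles, 5572 and 5419 at 14 cycles, but 6639 and 12167 at 18 cycles. The fractions had 8203 and 8579 CPM in 1/2, 13114 and 12766 in 1/4, with 6920.0 and 4501 in 1/8. Zbed3 was highest in 1/4 and in replicate 2 at 18 cycles, while replicate 1 at 18 cycles lay just above the highest library at 10 cycles.

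**Figure D1:**
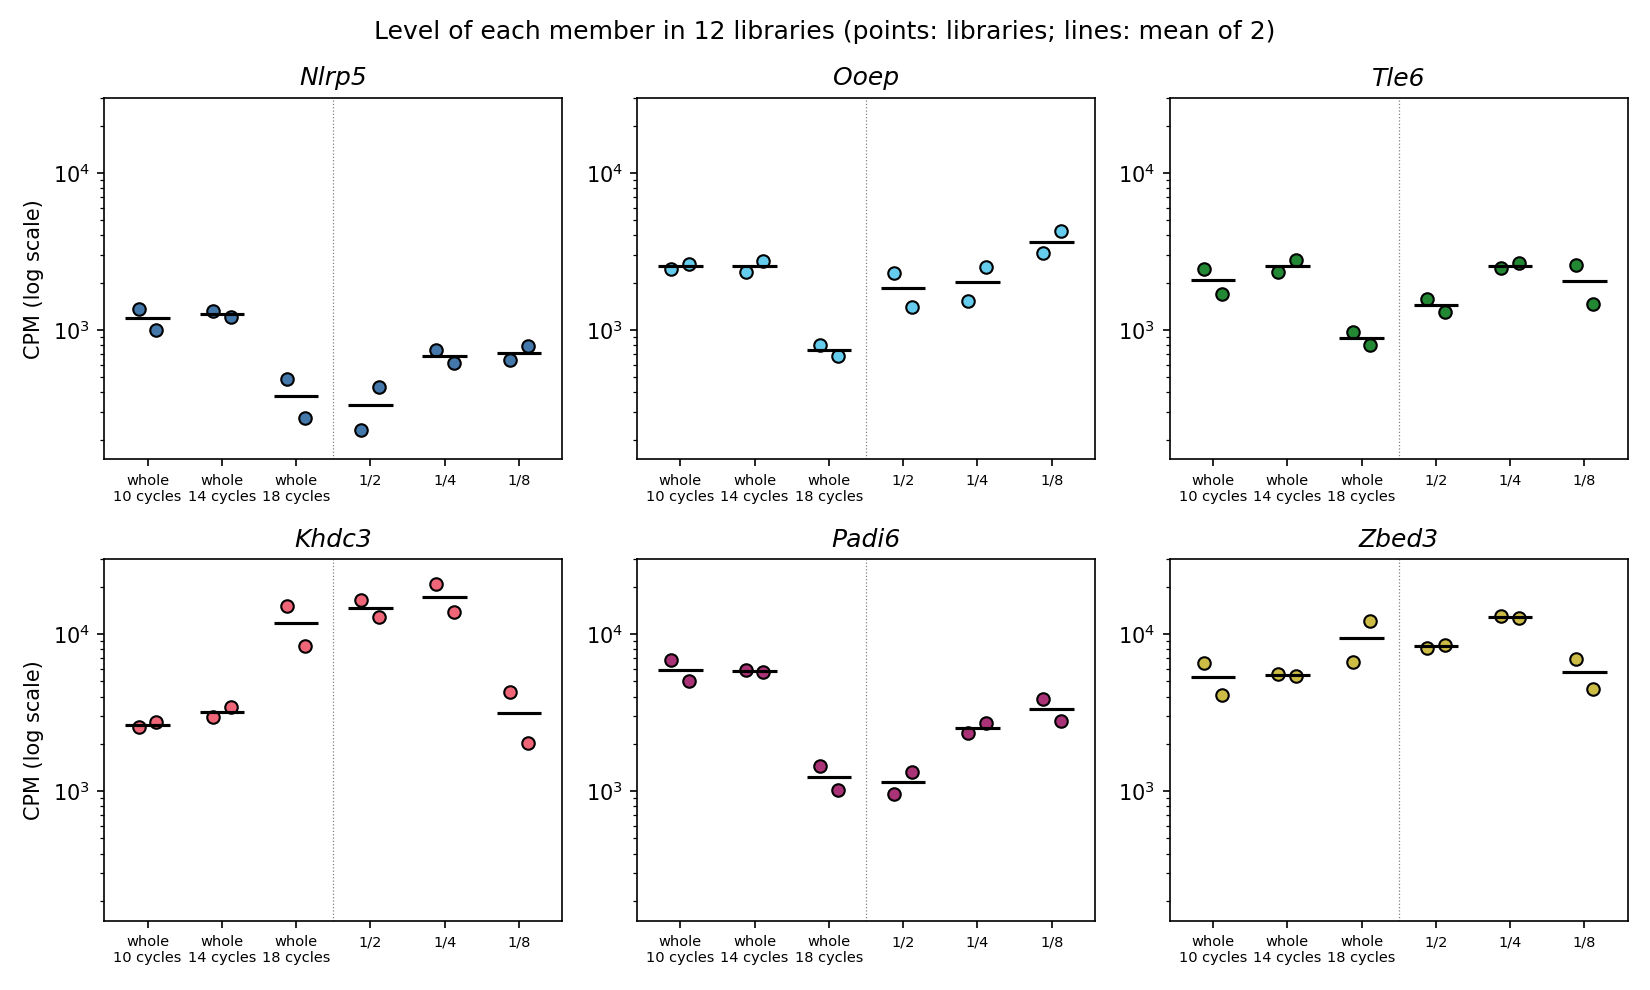
Level of each gene in CPM (log axis) in the 12 libraries, by group; each point is a library and each line the mean of 2 libraries. Whole oocytes at 18 cycles were below those at 10 and 14 cycles for Nlrp5, Ooep, Tle6 and Padi6 and above them for Khdc3 and Zbed3 on this scale.

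Levels of different genes were compared per kilobase of exon that no other gene covers (3508 bases for Nlrp5, 2138 for Ooep, 2015 for Tle6, 2333 for Padi6, 1945 for Zbed3 and 891 of 1681 for Khdc3). At 10 cycles the order of mean levels was Khdc3 with 2972 ± 147 CPM per kb (SD, n = 2), Zbed3 with 2724 ± 888, Padi6 with 2548 ± 560.2, Ooep with 1190.2 ± 60.8, Tle6 with 1025 ± 260.0 and Nlrp5 with 337 ± 74.2. The libraries of Khdc3, Zbed3 and Padi6 overlapped there, those of Ooep and Tle6 overlapped too, and Nlrp5 was below all others. At 18 cycles the whole oocytes had 13214 ± 5390.4 CPM per kb of Khdc3, 4834 ± 2009.7 of Zbed3, 527 ± 130.0 of Padi6, 441 ± 59.0 of Tle6, 346 ± 38.1 of Ooep and 109 ± 43.2 of Nlrp5 (SD, n = 2). Padi6 overlapped with Tle6 in that order, and no other neighbours in it overlapped. The place of Khdc3 rests on the length used. Divided by its whole transcript, an alternative chosen after seeing the data, Khdc3 had 1576 ± 78.1 CPM per kb at 10 cycles, below Zbed3 and Padi6 without overlap, and 7004 ± 2857.1 at 18 cycles, where it overlapped with Zbed3 (SD, n = 2).

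Summed over the 6 genes, the level differed less between the groups than that of Padi6 or Khdc3 did. It was 22201 and 17169 CPM at 10 cycles, 20379.8 and 21285 at 14 cycles, 25512 and 23321 at 18 cycles, 29690.4 and 25966 in 1/2, 41037 and 35107 in 1/4, with 21383 and 15837 in 1/8. The sum was thus highest in 1/4, and 1/8 overlapped with 10 cycles. An exact two-sided permutation test of 2 against 2 libraries cannot give a p below 0.333, so no such test was used for sums and shares.

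The share of each gene in the sum was taken per kilobase. Between 10 and 18 cycles the libraries overlapped in the share of Zbed3 and in that of no other member. Khdc3 made up 24.1% and 31.8% at 10 cycles, 29.2% and 31.7% at 14 cycles, 77.2% and 55.7% at 18 cycles, 73.8% and 69.4% in 1/2, 70.3% and 59.9% in 1/4, with 37.1% and 26.0% in 1/8. Padi6 made up 24.7% and 22.2% at 10 cycles, 22.2% and 20.3% at 14 cycles, 2.81% and 2.58% at 18 cycles, 1.64% and 2.71% in 1/2, 3.01% and 4.46% in 1/4, with 12.9% and 13.8% in 1/8. Neither gene's share overlapped between 10 and 18 cycles; in 1/8 that of Khdc3 overlapped with 10 cycles, and that of Padi6 lay between those of 10 and 18 cycles. The shares of Nlrp5, Ooep and Tle6 were 3.11% ± 0.234, 11.2% ± 2.19 and 9.42% ± 1.03 at 10 cycles and 0.547% ± 0.119, 1.79% ± 0.140 and 2.28% ± 0.124 at 18 cycles (SD, n = 2). The share of Zbed3 was 24.9% ± 4.60 at 10 cycles and 26.3% ± 15.2 at 18 cycles (SD, n = 2), with 15.5% and 37.0% in the libraries of the latter. Its mean rose more without division by length, from 26.6% ± 3.98 to 39.1% ± 18.5, and with Khdc3 over its whole transcript, from 28.6% ± 4.45 to 37.2% ± 18.3 (SD, n = 2), and the libraries of 10 and 18 cycles overlapped in each case. Over its whole transcript, Khdc3 made up 14.4% and 19.8% at 10 cycles and 64.2% and 40.0% at 18 cycles, again without overlap.

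**Figure D2:**
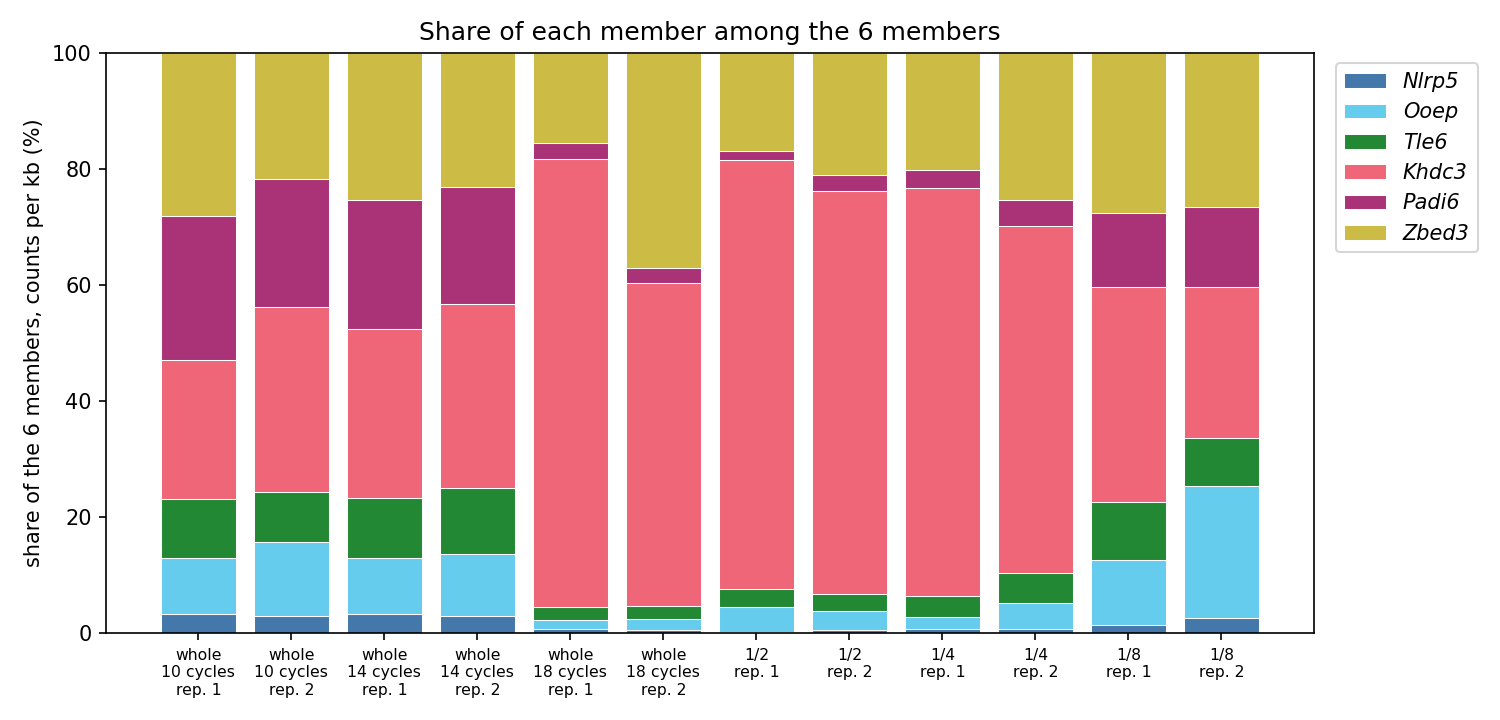
Share of each gene in the sum of the 6 genes, in percent of counts per kb, with a stacked bar for each library. Khdc3 took between 55.7% and 77.2% in whole oocytes at 18 cycles, 1/2 and 1/4, and at most 37.1% in the other libraries. Over its whole transcript it took between 40.0% and 64.2% in the former and at most 23.8% in the latter.

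A ratio of counts of 2 genes in the same library needs no size factor. Zbed3 had 0.949 and 0.812 counts for each count of Padi6 at 10 cycles, 0.949 and 0.949 at 14 cycles, but 4.59 and 11.97 at 18 cycles. The ratio was 8.57 and 6.48 in 1/2, 5.61 and 4.73 in 1/4, with 1.78 and 1.60 in 1/8. It was therefore under 1 in all 4 whole oocytes at 10 and 14 cycles and above 1 in the other 8 libraries, and no 2 of the groups 10 cycles, 18 cycles and 1/8 overlapped. In contrast, Nlrp5 had 0.199 counts for each count of Padi6 in both libraries at 10 cycles, and between 0.167 and 0.338 in the other libraries.

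To ask whether the cycle number changed the measured transcriptome, whole oocytes at 10, 14 and 18 cycles were compared in 1 fit by edgeR's quasi-likelihood test, with size factors from the median ratio over all genes, Benjamini-Hochberg adjustment over 17532 genes and a threshold of 0.01. The p-values measure the spread between these libraries, which are separate oocytes from the same female. Between 14 and 10 cycles 0 of the 6 members passed, against 0.0% of all genes lower and 0.0% higher. With an unadjusted p under 0.05 there were 513 genes in edgeR, 0 of them members, and DESeq2 called 1 gene lower and 1 higher, 0 of them members. The log2 fold changes of the members lay between -0.07 for Padi6 and 0.28 for Tle6.

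Between 18 and 10 cycles, Nlrp5, Ooep, Tle6 and Padi6 were lower and Khdc3 was higher with median ratio size factors (4 and 1 of 6, against 10.8% of all genes lower and 12.3% higher), whereas with ERCC size factors, an alternative chosen after seeing the data, 0 were lower and Tle6, Zbed3 and Khdc3 were higher (3 of 6, against 47.6% of all genes higher and 0.0% lower). The median log2 fold change of all genes was -0.29 with the median ratio and 1.96 with ERCC. By edgeR with the median ratio, the log2 fold change of Padi6 was -2.01 (SE 0.22, adjusted p = 0.000130) and that of Ooep was -1.52 (SE 0.20, adjusted p = 0.000293). For Nlrp5 it was -1.38 (SE 0.25, adjusted p = 0.00187) and for Tle6 -0.95 (SE 0.22, adjusted p = 0.00615) in the same edgeR test. Khdc3 had a log2 fold change of 2.39 (SE 0.25, edgeR adjusted p = 0.000117), and all of these called genes showed their direction in both libraries at 18 cycles against both at 10 cycles. Zbed3, at 1.13 (SE 0.32), missed the threshold with an edgeR adjusted p of 0.0195.

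The scalings differ by factors that move all genes of a library alike, so values relative to the median of all genes are alike by construction and neither scaling supports the other. On that relative scale Padi6 stood at -1.72 with the median ratio and -1.65 with ERCC, Ooep at -1.23 and -1.24, Nlrp5 at -1.09 and -0.98, and Tle6 at -0.66 and -0.62 on the log2 scale. Zbed3 stood at 1.42 and 1.31, and Khdc3 at 2.69 and 2.76. With ERCC size factors and no such centring, Padi6 had a log2 fold change of 0.30, Ooep of 0.72, Nlrp5 of 0.98, Tle6 of 1.34, Zbed3 of 3.27 and Khdc3 of 4.72 between 18 and 10 cycles.

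Leaving out either library at 10 cycles reduced the lower members to Ooep and Padi6 with the median ratio, and the call of Tle6 was lost with each of the 6 libraries left out. Its edgeR adjusted p then ranged from 0.0130 to 0.0700. The call of Nlrp5 was lost without replicate 1 at 10 cycles (edgeR adjusted p = 0.0264) or replicate 2 (0.0110). Besides ERCC size factors, Zbed3 passed in 5 of 14 alternatives: without replicate 1 at 18 cycles, with a log2 fold change of 1.57 (edgeR adjusted p = 0.00176), in DESeq2 (adjusted p = 0.00368), without the filter (5.99e-08), in the fit of 12 libraries (0.00421) and with a crossed replicate block chosen after seeing the data (0.00348). Over these 14 its edgeR or DESeq2 adjusted p ranged from 5.99e-08 to 0.187.

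The comparison of 18 with 14 cycles shares the whole oocytes at 18 cycles with the one above. There, Nlrp5, Ooep, Tle6 and Padi6 were lower and Khdc3 was higher with the median ratio (4 and 1 of 6, against 10.7% of all genes lower and 12.5% higher), while with ERCC size factors 0 were lower and Zbed3 and Khdc3 were higher (2 of 6, against 47.9% of all genes higher and 0.0114% lower). The log2 fold changes with the median ratio were -1.45 for Nlrp5, -1.49 for Ooep, -1.23 for Tle6, -1.95 for Padi6, 2.17 for Khdc3 and 1.10 for Zbed3 (not called). Without replicate 1 at 14 cycles, the calls of Nlrp5 (edgeR adjusted p = 0.0133) and Tle6 (0.0108) were lost, and that of Tle6 also without replicate 2 at 14 cycles (0.0286). Zbed3 passed in the same 5 of 14 alternatives: without replicate 1 at 18 cycles (1.55, edgeR adjusted p = 0.00175), in DESeq2 (adjusted p = 0.00484), without the filter (1.29e-07), in the fit of 12 libraries (0.00504) and with the crossed block (0.00327). The range over all 14 was 1.29e-07 to 0.110 by edgeR or DESeq2.

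**Figure D3:**
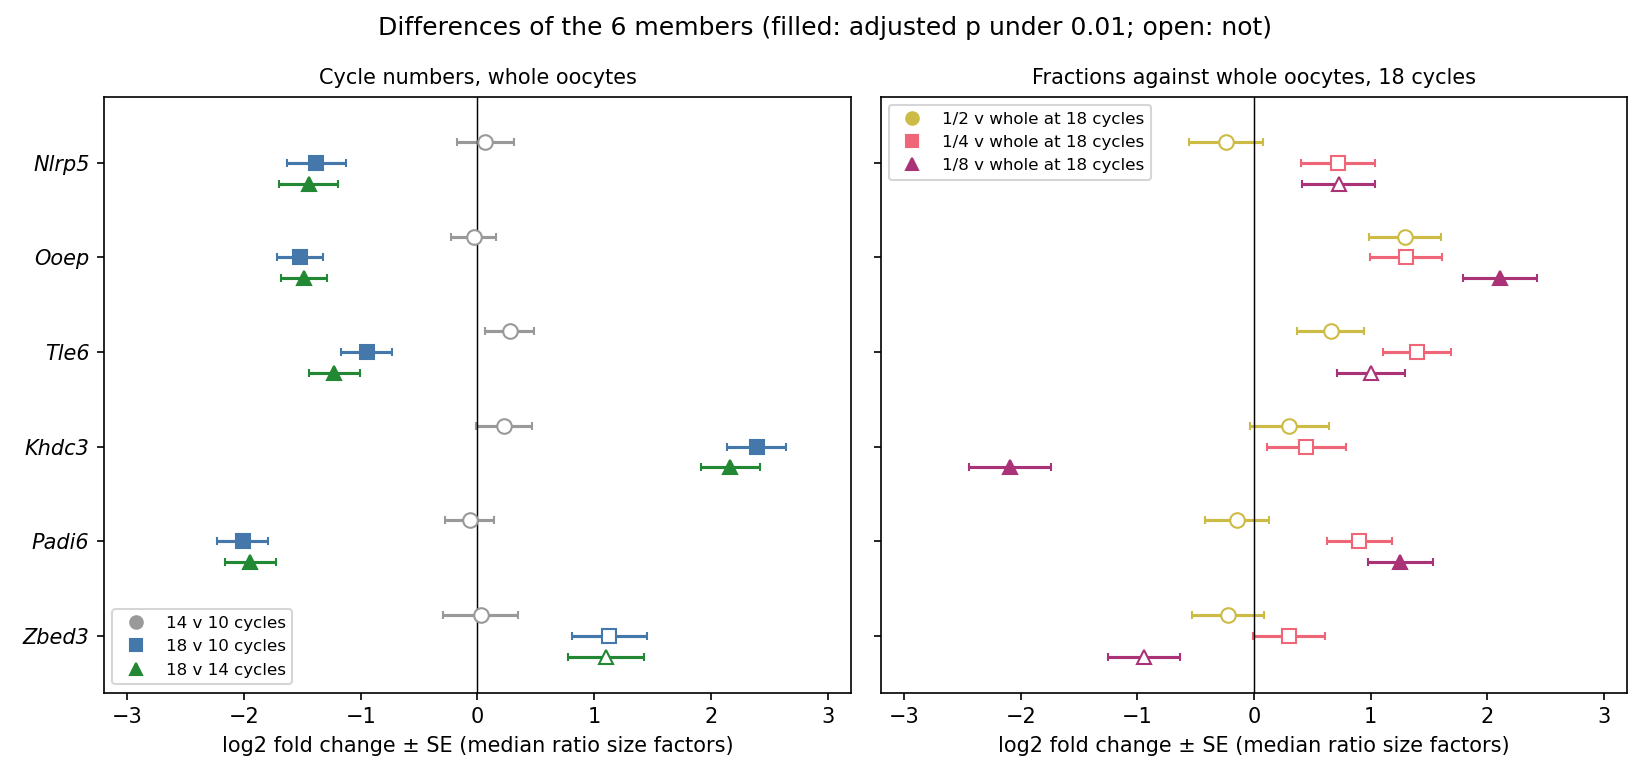
Log2 fold change of each gene ± SE in the cycle comparisons of whole oocytes (left) and for the fractions against whole oocytes at 18 cycles (right), with median ratio size factors; filled symbols passed an adjusted p of 0.01. At 18 against 10 cycles Padi6 was at -2.01 and Khdc3 at 2.39; with ERCC size factors the left-hand values below 0 for 18 cycles were above 0, and the right-hand values above 0 were below 0.

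The base composition of the transcripts was set beside these calls. Genes called lower at 18 than at 10 cycles had a median GC content of 45.7% in their longest coding transcript, those called higher 54.3%, and all genes tested 49.4%. Among the members it was 46.3% for Ooep, 47.2% for Nlrp5, 53.2% for Padi6, 53.9% for Zbed3, 56.0% for Tle6 and 57.9% for Khdc3. Of the called members, Ooep and Nlrp5 (lower) were below the median of all genes tested, and Padi6 and Tle6 (lower) and Khdc3 (higher) were above it. The part of base composition in the differences was not tested.

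Fractions were compared with whole oocytes at 18 cycles in 1 fit of 8 libraries over 14788 genes, and the 3 comparisons share those 2 whole-oocyte libraries. All fractions came from 2 other oocytes, so fraction and oocyte cannot be told apart in them. The p-values pool the spread between separate whole oocytes with that between dilutions of lysates. Median ratio size factors ask whether the relative make-up of the RNA was kept, and ERCC size factors ask how much RNA there was for each spike-in molecule. With the median ratio, 0 of the 6 members passed in 1/2 (against 0.0406% of all genes lower and 0.0811% higher), and 0 passed in 1/4 (against 0.426% lower and 0.0338% higher). At an unadjusted p under 0.05 there were 1943 and 2331 genes by edgeR, with Ooep and Tle6 among those of 1/2 and Nlrp5, Ooep, Tle6 and Padi6 among those of 1/4, and DESeq2 called 48 lower and 85 higher in the former, with 170 lower but 69 higher for 1/4. Ooep had a log2 fold change of 1.29 in 1/2 (SE 0.31, edgeR adjusted p = 0.0509) and 1.30 in 1/4 (SE 0.31, edgeR adjusted p = 0.0364), and passed in both by DESeq2 (adjusted p = 0.00358 and 0.00198) and without the filter (edgeR adjusted p = 0.00114 and 0.000790), 2 of 15 alternatives each. Tle6 had 1.39 in 1/4 (SE 0.29, edgeR adjusted p = 0.0154) and passed in 6 of 15 alternatives. These were DESeq2 (adjusted p = 0.000137) and, by edgeR, no filter (0.000206), the replicate block (0.00338), total counts (0.00613), the fit of 12 libraries (0.00674) and replicate 2 of 1/8 left out (0.00672), and over all 15 the edgeR or DESeq2 adjusted p ranged from 0.000137 to 0.164. Padi6 had 0.90 (edgeR adjusted p = 0.108) and Nlrp5 0.72 (0.266) in 1/4, and Tle6 had 0.66 (0.315) in 1/2. The log2 fold changes of the others in 1/2 were -0.24 for Nlrp5, -0.14 for Padi6, -0.23 for Zbed3 and 0.30 for Khdc3, and in 1/4 they were 0.30 for Zbed3 and 0.45 for Khdc3.

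In 1/8 against whole oocytes at 18 cycles, Ooep and Padi6 were higher and Khdc3 was lower with the median ratio (2 and 1 of 6, against 7.06% of all genes higher and 8.69% lower), whereas with ERCC size factors 6 of 6 were lower, as given further on. The log2 fold change of Ooep was 2.11 (SE 0.32, edgeR adjusted p = 7.47e-05), that of Padi6 was 1.25 (SE 0.28, edgeR adjusted p = 0.00214) and that of Khdc3 was -2.09 (SE 0.35, edgeR adjusted p = 0.000209). Each of the 3 showed its direction in both libraries of 1/8 against both whole oocytes. Tle6 at 1.00 (edgeR adjusted p = 0.0129), Nlrp5 at 0.72 (0.0911) and Zbed3 at -0.94 (0.0266) did not pass. Padi6 lost its call without replicate 2 at 18 cycles (edgeR adjusted p = 0.0237) or replicate 1 of 1/8 (0.0260). Tle6 passed in 7 of 15 alternatives: without replicate 2 of 1/8 (edgeR adjusted p = 0.00409), in DESeq2 (adjusted p = 0.00290), with the replicate block (0.00929), TMM (0.00924) or total counts (0.00314), in the fit of 12 libraries (0.00710) and without the filter (0.00381). Over all 15 its adjusted p ranged from 0.00290 to 0.202. Zbed3 passed in 2 of 15, without replicate 1 at 18 cycles (edgeR adjusted p = 0.00393) and without the filter (0.00516).

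Between neighbouring fractions, 0 of 6 members passed in 1/4 against 1/2 (0.0% of all genes lower and 0.0% higher with the median ratio). There were 1842 genes at an unadjusted p under 0.05 by edgeR, among them Padi6 with a log2 fold change of 1.05, Nlrp5 with 0.96 and Tle6 with 0.74 (adjusted p = 0.136, 0.210 and 0.280 by edgeR), while Zbed3 had 0.53, Khdc3 0.15 and Ooep 0.0074. DESeq2 called 11 genes lower and 15 higher, 0 of them members. With the replicate number as a block edgeR called 2 lower and 12 higher. In 1/8 against 1/4, Khdc3 was lower (1 of 6, against 3.42% of all genes lower and 1.54% higher), with a log2 fold change of -2.54 (SE 0.36, edgeR adjusted p = 0.000171), and it was also lower with ERCC size factors. Zbed3 was at -1.24 (SE 0.31, edgeR adjusted p = 0.0115), and passed in 6 of 15 alternatives. These were DESeq2 (adjusted p = 0.00172) and, by edgeR, no filter (0.000245), the replicate block (0.00427), the fit of 12 libraries (0.00634) and replicate 1 (0.00354) or replicate 2 (0.00316) at 18 cycles left out, with an edgeR or DESeq2 adjusted p from 0.000245 to 0.139 over all 15. Of the remaining members, Ooep had a log2 fold change of 0.81, Padi6 of 0.35, Tle6 of -0.39 and Nlrp5 of 0.01.

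The diluted oocytes were then set against whole oocytes at the lowest cycle number. In 1/8 against whole oocytes at 10 cycles, in a fit of 12 libraries over 18041 genes with the median ratio, 0 of 6 members passed (0.0% of all genes lower and 0.0% higher). There were 2278 genes at an unadjusted p under 0.05 by edgeR, among them Nlrp5, Ooep and Padi6, and DESeq2 called 13 lower and 28 higher, 0 of them members. The log2 fold changes were -0.66 for Nlrp5, 0.58 for Ooep, 0.04 for Tle6, -0.77 for Padi6, 0.30 for Khdc3 and 0.17 for Zbed3. A p that misses the threshold does not show that the groups were alike, and Nlrp5, Ooep and Padi6 did not overlap between them.

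With ERCC size factors, 4 of 6 members were lower in 1/2 when set against undivided oocytes at 18 cycles (against 52.0% of all genes lower and 0.0% higher). The number was 6 of 6 in 1/4 (against 69.7% lower and 0.0% higher) and 6 of 6 in 1/8 (against 87.5% lower and 0.0% higher). The median log2 fold changes of all genes were -2.00, -2.69 and -4.92, and those of the 6 members were -1.91, -1.99 and -4.15. Exact dilution of oocytes with alike amounts of RNA would leave 1/2, 1/4 and 1/8 of the whole-oocyte level. The medians of all genes lay below that in each fraction, so these values cannot be read as amounts of input RNA. The reason was not tested. In 1/2, Nlrp5 had a log2 fold change of -2.37, Padi6 of -2.21, Zbed3 of -2.08 and Khdc3 of -1.74, while Tle6 at -1.32 and Ooep at -0.65 did not pass. In 1/8, it was -2.88 for Ooep (SE 0.50), -3.75 for Padi6 (SE 0.51), -3.96 for Tle6 (SE 0.52), -4.33 for Nlrp5 (SE 0.53), -5.76 for Zbed3 (SE 0.56) and -7.12 for Khdc3 (SE 0.65). The edgeR adjusted p was at most 5.81e-07 for these.

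Between neighbouring fractions with ERCC size factors, 0 of 6 members passed in 1/4 against 1/2 (against 0.0338% of all genes lower and 0.00676% higher), where edgeR had 3532 genes at an unadjusted p under 0.05 and DESeq2 called 288 lower and 0 higher, 0 of them members. These comparisons are unpaired although the fractions came from 2 oocytes; with the replicate number as a block, which is not stated to pair libraries, 874 genes were lower and 11 higher in 1/4 against 1/2, 0 of them members. In 1/8 against 1/4, 6 of 6 were lower (against 60.2% lower and 0.0% higher), from -1.39 for Ooep to -4.78 for Khdc3, beside a median of -2.19 for all genes. That median too lay below the 1/2 that exact dilution would give. The call of Ooep (edgeR adjusted p = 0.00790) was lost with each library of 1/4 or 1/8 left out (edgeR adjusted p from 0.0146 to 0.0883) and with total ERCC counts (0.0266), and that of Padi6 without replicate 2 of 1/8 (0.0222).

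These numbers rest on few spike-in counts in the whole oocytes. ERCC counts were 1611 and 1474 in the whole oocytes at 18 cycles, 9167 and 10467 in 1/2, 18802 and 29075 in 1/4, with 231470 and 36593 in 1/8. Without replicate 1 at 18 cycles, Zbed3 was the 1 member lower in 1/2 and also in 1/4. Without replicate 2 of 1/2, Nlrp5 was the 1 member lower in 1/2, and without replicate 1 of 1/2 the call of Khdc3 was lost (edgeR adjusted p = 0.0109). Tle6 passed in 1/2 in 4 of 14 alternatives: without replicate 2 at 18 cycles (edgeR adjusted p = 0.00100), with the replicate block (0.000256), in DESeq2 (adjusted p = 0.00781) and in the fit of 12 libraries (0.00241). Over all 14 its edgeR or DESeq2 adjusted p ranged from 0.000256 to 0.281. In 1/4, Nlrp5, Ooep and Tle6 lost their calls without its replicate 2, Ooep (edgeR adjusted p = 0.0536) and Tle6 (0.0295) without its replicate 1, and Tle6 without replicate 2 of 1/2 (0.0107). Summed over the members, there were 7.18 and 6.18 counts for each ERCC count at 10 cycles, 7.07 and 7.53 at 14 cycles, 47.8 and 27.0 at 18 cycles, 13.04 and 8.93 in 1/2, 8.79 and 6.10 in 1/4, with 1.05 and 0.737 in 1/8. The whole oocytes at 18 cycles were above all other libraries on this scale, and those at 10 and 14 cycles lay within the range of 1/2 and 1/4.

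Across the 12 libraries, Nlrp5 and Padi6 had a Pearson correlation of 0.958 of log2(CPM + 1), and Khdc3 and Zbed3 of 0.791. Khdc3 had a correlation of -0.758 with Padi6, -0.688 with Nlrp5, -0.604 with Ooep and -0.264 with Tle6. These are descriptions over 12 libraries of 6 groups that differ in depth. Among 8859 genes with a mean of at least 10 CPM, the 3 most like Nlrp5 were Pip4p2 (0.986), Chd9 (0.979) and the zona pellucida gene Zp2 (0.973), and those like Padi6 included Tuba1c (0.983) and Zp2 (0.983). Ooep was most like Sdhc (0.992), Med21 (0.988) and Tmed5 (0.987), and Tle6 most like Zp3 (0.986), which also encodes a zona pellucida protein, then Ppox (0.958) and Gm21992 (0.952). For Khdc3 these were its overlapping neighbour Gm20509 (0.996), Zfp865 (0.986) and Pdzrn4 (0.984), and for Zbed3 Lypla2 (0.971), Ptprs (0.970) and Usp39 (0.927). The mean of the 6 members was most like Tle6 itself (0.963), Zp3 (0.959) and Ago2 (0.957).

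Genes of proposed partners of the complex and of the lattices were taken as a list of 6 genes. At 18 against 10 cycles, Nlrp2, Nlrp4f and Nlrp14, NLR family genes of the oocyte, were lower with the median ratio (3 of 6 lower and 0 higher, against 10.8% and 12.3% of all genes), with log2 fold changes of -2.10, -2.34 and -2.13. Uhrf1, a reader of DNA methylation that is held in the oocyte cytoplasm, had -0.27, the ubiquitin-conjugating enzyme gene Ube2d3 -0.73 and the actin-severing factor gene Cfl1 -0.43, and these 3 did not pass. The same 3 NLR genes were higher in 1/8 than in whole oocytes at 18 cycles with the median ratio, at 2.02, 1.76 and 1.77 (3 of 6, against 7.06% of all genes), and 6 of 6 were lower there with ERCC size factors (against 87.5% of all genes). The list had a median log2 fold change of -1.41 between 18 and 10 cycles, beside -1.16 for the 6 members and -0.29 for all genes.

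Among 5 transcription factor genes of the oocyte, Nobox was lower (-1.32) and Lhx8 higher (1.33) at 18 than at 10 cycles with the median ratio (1 of 5 each way, against 10.8% of all genes lower and 12.3% higher). Figla at 0.46 and Taf4b at 0.72 did not pass, and Sohlh1 had at most 1.99 CPM in any library and was at 0 in 5. Of 10 other genes needed in the egg for early development, 3 were lower (Dppa3, Npm2 and Tcl1) and 5 were higher (Zar1, Trim28, Atg5, Hsf1 and Smarca4) in that comparison (against 10.8% and 12.3% of all genes), with log2 fold changes from -2.30 for Dppa3 to 2.09 for Zar1, while Zfp57 and Ago2 did not pass. For oocyte markers the count was 8 of 10 lower and 0 higher, against the same shares of all genes, with a median log2 fold change of -1.61. These directions hold with median ratio size factors, and the median of all genes was 1.96 with ERCC.

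Of 16 relatives of the members by sequence family, 14 passed the filter on low counts, of which 3 were lower (Khdc1a, Khdc1b and Khdc1c) and 2 were higher (Tle1 and Aes, also called Tle5) at 18 than at 10 cycles with the median ratio (against 10.8% and 12.3% of all genes). The other deiminase genes Padi1, Padi2, Padi3 and Padi4 had at most 7.05 CPM in any library. Khdc1b had 1081 and 1068 CPM at 10 cycles, 224 and 256 at 18 cycles, and 770.2 and 972 in 1/8.

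Sequence before the transcription start was searched for motifs. Nlrp5 and Padi6 had the highest correlation among the members. That of Zbed3 was negative with both (-0.533 with Nlrp5 and -0.553 with Padi6), and that of Khdc3 was further below 0 (-0.688 and -0.758). The part of promoter sequence in these correlations was not tested. RefSeq promoter windows (build GRCm38.p6) matched 6 of 6 members with 10 windows, and the 250 bases before each start were read on both strands. The E-box CANNTG, bound by factors such as FIGLA, was in 10 of the members' 10 windows and in 66.2% of 32851 windows of that length. Its form CAGCTG was in 4 of the 10, a window each of Nlrp5, Tle6, Padi6 and Zbed3, and in 4271 of all windows (13.001%); those of Tle6 and Zbed3 lie 3706 and 3155 bases from the annotated start. Another E-box form, CACCTG, was in 4 of the 10, of Khdc3, Padi6 and Zbed3, and in 17.2% of all. The homeobox motif TAATTG was in 1 of the 10, that of Ooep, and in 7.17% of all. The windows shown lie just upstream of the annotated start, at chr7:23385639-23385888 on the plus strand for Nlrp5, chr4:140742644-140742893 on the minus strand for Padi6 and chr13:95323355-95323604 on the plus strand for Zbed3, and capitals mark the E-box forms with GC or CC in the middle.
Nlrp5: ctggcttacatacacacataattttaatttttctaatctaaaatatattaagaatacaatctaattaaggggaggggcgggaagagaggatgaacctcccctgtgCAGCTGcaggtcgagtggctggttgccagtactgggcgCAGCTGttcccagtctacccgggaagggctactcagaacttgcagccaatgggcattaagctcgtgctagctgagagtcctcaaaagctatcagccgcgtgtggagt
Padi6: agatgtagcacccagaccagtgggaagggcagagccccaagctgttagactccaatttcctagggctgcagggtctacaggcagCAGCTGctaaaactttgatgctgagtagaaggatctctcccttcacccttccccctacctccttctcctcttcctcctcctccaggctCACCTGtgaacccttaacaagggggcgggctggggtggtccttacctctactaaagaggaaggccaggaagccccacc
Zbed3: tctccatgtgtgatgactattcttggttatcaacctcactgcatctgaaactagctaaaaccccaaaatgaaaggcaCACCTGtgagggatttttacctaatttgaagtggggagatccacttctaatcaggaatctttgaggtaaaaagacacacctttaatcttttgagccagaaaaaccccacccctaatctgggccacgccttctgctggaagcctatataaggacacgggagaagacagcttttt
CAGCTG occurred 2 times in the window of Nlrp5 and 1 time in that of Padi6, which also held CACCTG 1 time, as did the window of Zbed3. A match is a description of these letters, and binding was not measured.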

How the data were processed

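Poly(A) RNA of 12 libraries was analysed. According to the study's methods, the authors mapped reads to the mouse genome with the ERCC sequences and counted them with HTSeq. The deposited files hold whole-number counts per gene and per ERCC molecule, with no sign of normalization in the values. The submitters' processing notes name cutadapt 2.5, STAR 2.7.2a, SAMtools 1.9 and HTSeq 0.9.1. Whether counting used strand was not settled, and reads on no feature made up 6.90% to 10.8% of each library. Amplified reads carry no molecular identifiers, so they are not independent molecules.

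Genes were named from GENCODE mouse release 21, which lists 55480 of the 55573. Chi-square over its degrees of freedom between the replicates of a group was 10.0 to 16.7, set against counting error only, so no replicate repeated the counts of another. A gene entered a fit when 2 or more of its libraries had 5 or more counts. Tests were quasi-likelihood tests of edgeR 4.0.16 (R 4.3.3) without covariates, with Benjamini-Hochberg adjustment over all genes tested and a threshold of 0.01. The procedure was also run on simulated counts with the same spread for all genes, which is no support for the calls in these data. Size factors were median ratios over all genes or over the ERCC molecules. The fraction fit held 8 libraries, the cycle fit 6, and 1/8 against 10 cycles a fit of 12. Levels were CPM over gene counts, per kilobase of the longest coding transcript not covered by exons of another gene. Genes most alike were ranked by Pearson correlation. The members and lists were chosen with earlier results of these data known, and the named genes are the members, those lists and up to 3 genes most like each member. Alternatives were DESeq2 1.42.0, no filter, a replicate block, other size factors, a fit of 12 libraries, leaving out each library, other denominators of CPM, shares without length and, chosen after seeing the data, Khdc3 over its whole transcript.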

Additional observations from a re-analysis of the deposited data

How the results depend on the processing

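With the median ratio, the direction of the 4 lower members between 18 and 10 cycles held in all alternatives but ERCC size factors, and that of Khdc3 held in all. ERCC size factors were chosen after seeing the data and gave 0.98 for Nlrp5, 0.72 for Ooep, 1.34 for Tle6 and 0.30 for Padi6 (log2), with 3 members called where 5 were. For 18 against 14 cycles they gave 0.90, 0.79, 1.06 and 0.37, with 2 called. ERCC size factors differ from the median ratio by the shift of all genes given above. Leaving out each library gave 3 to 5 called members for 18 against 10 cycles and 3 to 6 for 18 against 14. In the fractions with the median ratio, 1/2 gave 1 called member by DESeq2 (all genes: 48 lower, 85 higher) and 1 without the filter (120 and 98), against 0 (6 and 12). In 1/4 there were 2 by DESeq2, 2 without the filter, 1 with total counts, 1 in the fit of 12 libraries and 0 to 1 without each library, against 0. In 1/8 there were 5 without the filter and 2 to 4 without each library, against 3. In 1/8 against 1/4 there were 2 by DESeq2, 2 without the filter, 2 in the fit of 12 libraries and 1 to 2 without each library, against 1. With ERCC size factors, leaving out each library gave 1 to 5 called members in 1/2, against 4, 1 to 6 in 1/4, against 6, and 4 to 6 in 1/8 against 1/4, against 6. The calls over all genes with the median ratio moved too. In 1/4, 63 lower and 5 higher became 170 and 69 by DESeq2, 159 and 46 without the filter and 95 and 22 with 12 libraries. In 1/8, 1285 and 1044 became 1585 and 1239 without the filter. In 1/8 against 1/4, 506 and 228 became 722 and 383, 833 and 383, and 706 and 494 in the order of 1/4. Such numbers are not given here for fits without a library. The cause of these changes was not tested.

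Near 0, the log2 fold change of Nlrp5 in 1/8 against 1/4 ranged from -0.18 to 0.21 without each library. In 1/8 against whole oocytes at 10 cycles the range was -0.41 to 0.39 for Tle6, -0.32 to 0.73 for Khdc3 and -0.15 to 0.51 for Zbed3, and Tle6 had -0.018 with total counts. Over 15 alternatives, values in 1/2 against whole oocytes at 18 cycles also changed sign. They ran from -0.72 to 0.14 for Nlrp5, -0.35 to 0.04 for Padi6, -0.65 to 0.36 for Zbed3 and -0.02 to 0.70 for Khdc3. In 1/4 against them, Zbed3 ran from -0.13 to 0.89. For 1/4 against 1/2 the ranges were -0.33 to 0.44 for Ooep and -0.24 to 0.46 for Khdc3. Between 14 and 10 cycles, all members but Tle6 and Khdc3 changed sign in some of 14 alternatives. Over all genes, total counts moved the calls between 18 and 10 cycles from 1898 lower and 2155 higher to 2634 and 1639, between 18 and 14 cycles from 1873 and 2199 to 2715 and 1549, in 1/8 from 1285 and 1044 to 993 and 1421, and in 1/4 from 63 and 5 to 56 and 14.

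The replicate numbers are not stated to pair libraries, and the deviations of same-numbered libraries correlated between -0.144 and 0.136 over genes for which each of the 4 had 10 or more counts, and between -0.171 and 0.2202 over all genes tested. With the replicate number as a block there was 1 called member in 1/4 (against 0) and 2 in 1/8 against 1/4 (against 1). No other count of called members moved by over 1.5 times. Over all genes the block gave 105 lower and 21 higher in 1/4, against 63 and 5. It gave 682 and 292 in 1/8 against 1/4, where the main fit had 506 and 228. With the numbers at 14 cycles crossed, chosen after seeing the data, 6 members were called for 18 against 10 cycles and 6 for 18 against 14. The share of all genes called in that fit is not given here, so these counts have no background beside them.

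Adding reads on no feature changed the summed level to 18551 CPM at 14 cycles and 22254 at 18 cycles. Adding Gm20509 to Khdc3, chosen after seeing the data, gave 22640.6 CPM at 14 cycles, 30966 at 18 cycles, 36138 in 1/2 and 47617 in 1/4, and changed no count of called members by over 1.5 times. Without division by length the share of Khdc3 was 13.7% at 10 cycles, 15.2% at 14 cycles, 47.7% at 18 cycles, 52.6% in 1/2, 45.1% in 1/4 and 16.3% in 1/8, and that of Padi6 was 30.1%, 27.8%, 5.01%, 4.16%, 6.69% and 18.0%. For Nlrp5 it was 5.99%, 6.08%, 1.55%, 1.22%, 1.79% and 4.00%. In the same order it was 13.2%, 12.2%, 3.03%, 6.57%, 5.44% and 20.6% for Ooep, 10.4%, 12.2%, 3.63%, 5.13%, 6.80% and 10.7% for Tle6 and 26.6%, 26.4%, 39.1%, 30.3%, 34.2% and 30.4% for Zbed3.

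With Khdc3 divided by its whole transcript, chosen after seeing the data, its share was 17.1% at 10 cycles, 18.9% at 14 cycles, 52.1% at 18 cycles, 57.2% in 1/2, 49.9% in 1/4 and 19.7% in 1/8. From 10 cycles to 1/8 that of Padi6 was then 27.0%, 24.8%, 3.95%, 3.27%, 5.35% and 15.7%, and that of Tle6 10.8%, 12.6%, 3.32%, 4.66%, 6.29% and 10.8%. Nlrp5 had 3.57%, 3.60%, 0.809%, 0.638%, 0.949% and 2.33%, Ooep 12.9%, 11.9%, 2.61%, 5.62%, 4.76% and 19.7%, and Zbed3 28.6%, 28.2%, 37.2%, 28.6%, 32.7% and 31.8%.

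The limits are the 2 libraries in a group, the low depth of the whole oocytes at 18 cycles and of replicate 2 of 1/8, and the few ERCC counts behind the former. Where a library is left out, the lone sample of its group is assumed to vary like the others.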
